A study of Sus scrofa with 6 samples.

Results

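Cell division genes were followed in the livers of newborn piglets as a set of 38 named genes: 17 that act in DNA replication or the S phase, 20 that act in mitosis, and CCND1, a cyclin of the G1 phase. The set was chosen by function, and each gene was looked up by its Ensembl pig identifier among the 26733 features of the expression tables. Of the 38 genes, 26 had a row (11 S phase and 15 mitotic genes), and 12 of these (9 S phase and 3 mitotic genes) reached 1 FPKM or more in at least 3 libraries and were tested. FPKM scales a gene's fragments by its length and by the mapped fragments of the library, so levels can be compared between genes of different length. MKI67, RRM2 and AURKA had no identifier in the table of names, and CCNA2, CCND1, MCM6, MCM7, PCNA, TYMS, TK1, BIRC5 and NUSAP1 were not analysed here.

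The 6 liver libraries of Landrace x Yorkshire piglets comprised 3 for each of 2 maternal diets that differed in when tryptophan, an essential amino acid, was given. High-Low sows received 0.39% tryptophan in the morning meal and 0.13% in the afternoon meal, whereas 2×Trp sows received 0.26% at both. All RNA was total RNA of whole frozen liver, and the study addresses effects of dietary tryptophan on the newborn liver. The labels do not say whether the libraries of a diet came from different piglets or litters, so each p-value reflects only how far these libraries scatter, and that scatter may be technical.

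A dividing cell first loads helicase rings of MCM proteins onto DNA, makes nucleotides and copies its genome in the S phase, then condenses and separates its chromosomes in mitosis. Genes of both steps are switched on mainly in cycling cells, the S phase genes largely by E2F factors and the mitotic genes later, by FOXM1 and its partners. In the newborn liver hepatocytes still divide, and blood cell precursors that settled there before birth also cycle while blood formation moves to the bone marrow. In bulk tissue, fewer cells of a type and less RNA per cell cannot be told apart. The roles given below are known mainly from human, mouse and yeast cells.

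Summed FPKM per library ran from 956426 to 1230288. All 11 hepatocyte markers found in the tables were tested, and albumin (ALB) averaged 17650 ± 3549 FPKM in High-Low livers and 12020 ± 2996 FPKM in 2×Trp livers (SD, n = 3 each), as the tissue label says. No count of reads per library is given in the sources used here. Depths relative to 2×Trp 1 were taken from the most frequent ratio of values to that library over low features (mean under 0.3 FPKM). They were 1.32, 1.10 and 1.25 for High-Low 1 to 3, and 1.0, 0.936 and 1.32 for 2×Trp 1 to 3. Values were then adjusted for these depths. Of 2382 low features above 0 in at least 4 libraries, 2102 (88.2%) then had whole multiples of a step of their own, within 0.12 of a read. That share thus rests on the depths. Up to 10 multiples were tried for the lowest library above 0, and the share that would fit by chance was not estimated. The step search was set up after the values were seen.

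Cell division genes were low in these livers, and no member passed the test between the diets. Only RRM1, GMNN and UBE2C averaged above 5 FPKM over the 6 libraries, 9 of the 26 members stayed under 1 FPKM in every library, and 4 were listed at 0 in at least 1. By limma's moderated test on log2(FPKM + 1) with Benjamini-Hochberg adjustment over all 10901 genes tested, 0 of 12 members were higher and 0 were lower in High-Low livers at an adjusted p under 0.05. Among all genes tested, 1 was higher (0.00917%) and 0 were lower (0.0%). At an unadjusted p under 0.05 the members again gave 0 calls, against 136 higher (1.25%) and 209 lower (1.92%) of all genes. The groups did not overlap for 1 of 12 members, RRM1, with High-Low below. Over all genes tested the groups were apart with High-Low above for 3.06% and with High-Low below for 4.12%.

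**Figure D1:**
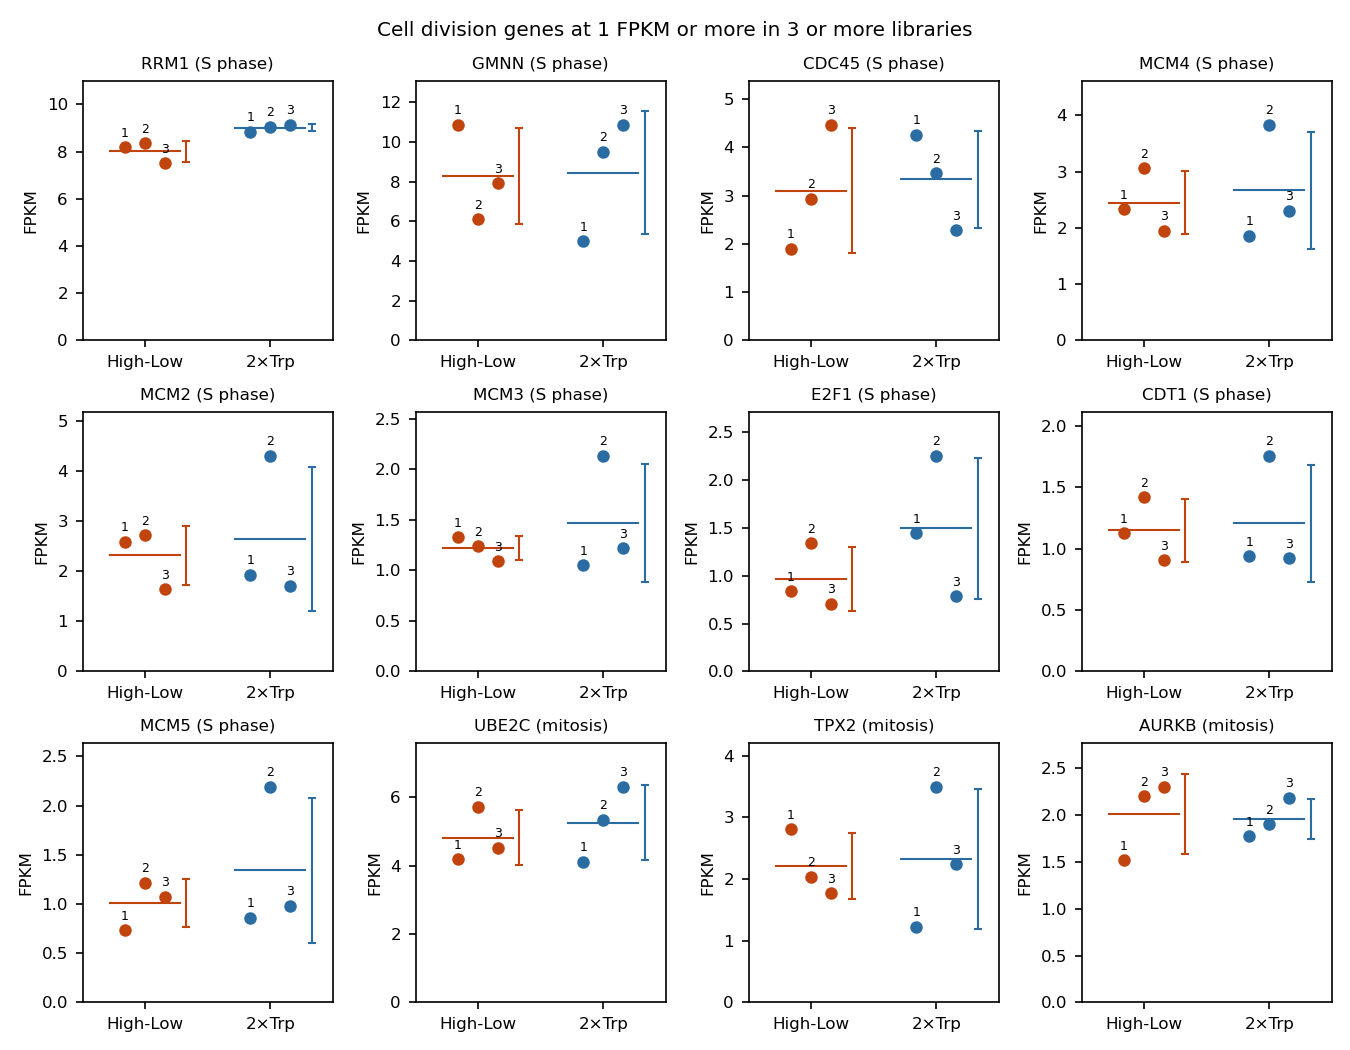
FPKM of the 12 tested cell division genes, 1 panel a gene, with each library as a point and the mean with its SD, High-Low at the left and 2×Trp at the right (n = 3 each). The diets' points overlap in every panel but that of RRM1, and 1 library, 2×Trp 2, is the highest in 7 of the 12 panels. Among those 7, CDT1, MCM5 and E2F1 passed the filter only with 2×Trp 2 counted, so that number partly reflects the filter.

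RRM1, the large subunit of ribonucleotide reductase, which makes the building blocks of DNA, was among the most abundant and the steadiest of the members. RRM1 (chromosome 9, 6818049 to 6840330 in the pig assembly susScr3) had 8.18, 8.35 and 7.50 FPKM in High-Low 1 to 3, against 8.85, 9.05 and 9.14 FPKM in 2×Trp 1 to 3. All High-Low values lay below all 2×Trp values, with means of 8.01 ± 0.451 FPKM in High-Low and 9.02 ± 0.152 FPKM in 2×Trp livers (SD, n = 3 each). The difference in log2(FPKM + 1) was -0.15 (SE 0.17, 95% interval -0.56 to 0.25, adjusted p = 0.998 by limma). Its coefficient of variation over the 6 libraries was 7.36%. With each library scaled to the mean FPKM total the groups overlapped, at 7.74, 7.67 and 8.85 in High-Low livers and 9.09, 8.41 and 9.56 in 2×Trp livers, so the separation of RRM1 depends on the scaling.

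GMNN (geminin), which blocks re-licensing of DNA that has been copied, was as abundant as RRM1 but varied widely within each diet. GMNN (chromosome 7, 20739307 to 20748725) had 10.9, 6.10 and 7.92 FPKM in High-Low livers, against 4.99, 9.52 and 10.9 FPKM in 2×Trp livers. Both diets held a library near 11 and a library near 5 or 6 FPKM, and the diet difference was 0.0022 in log2(FPKM + 1) with a 95% interval of -0.76 to 0.76. CDT1, the licensing factor that geminin inhibits, was low at 1.13, 1.42 and 0.906 FPKM in High-Low livers and 0.940, 1.76 and 0.921 FPKM in 2×Trp livers. In the same 2×Trp 2 library that was high for CDT1, GMNN was neither highest nor lowest. The partner of CDT1 in licensing, CDC6, stayed between 0.0493 and 0.266 FPKM in all libraries.

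The 4 measured subunits of the MCM2 to MCM7 helicase shared a pattern across libraries: 2×Trp 2 was the highest for each of them. MCM2 (chromosome 13, 80148532 to 80168594) had 2.59, 2.72 and 1.64 FPKM in High-Low livers, against 1.93, 4.31 and 1.71 FPKM in 2×Trp livers. MCM4 had 2.33, 3.06 and 1.95 FPKM in High-Low livers, against 1.86, 3.84 and 2.30 FPKM in 2×Trp livers. MCM3 ranged from 1.09 to 1.33 FPKM in High-Low livers and reached 2.13 FPKM in 2×Trp 2, with 1.05 and 1.22 FPKM in the other 2×Trp livers. MCM5, on an unplaced scaffold, ranged from 0.736 to 1.22 FPKM in High-Low livers and was 2.19 FPKM in 2×Trp 2, beside 0.862 and 0.981 FPKM. Summed over the 4 subunits, a set put together after their values were seen, the level was 6.99, 8.24 and 5.76 FPKM in High-Low livers and 5.71, 12.5 and 6.21 FPKM in 2×Trp livers. The diet means of this sum, 6.99 ± 1.24 FPKM in High-Low and 8.13 ± 3.77 FPKM in 2×Trp livers (SD, n = 3 each), differed by less than the spread within 2×Trp. The log2(FPKM + 1) differences of the 4 genes ran from -0.19 for MCM5 to -0.06 for MCM4, with 95% intervals from -0.81 to 0.64 at the widest (MCM2). That of MCM5 was -0.08 without High-Low 1 and -0.33 without 2×Trp 1. Without 2×Trp 2 the differences of MCM2, MCM3 and MCM4 turned positive, at 0.22, 0.06 and 0.15. MCM5 then fell below the filter and was not tested, and likewise without High-Low 2 or High-Low 3.

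CDC45, which joins the MCM ring to form the active helicase, did not follow this pattern. CDC45 (chromosome 14, 54750140 to 54775656) had 1.90, 2.94 and 4.47 FPKM in High-Low livers, against 4.27, 3.47 and 2.28 FPKM in 2×Trp livers. Its highest library was High-Low 3 and its lowest High-Low 1, so a single diet held both ends of its range. The diet difference was -0.10 in log2(FPKM + 1), and it was 0.13 without High-Low 1.

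E2F1, a transcription factor that drives S phase genes, had the largest diet difference of the 12 in size. E2F1 (chromosome 17, 42116178 to 42121899) had 0.840, 1.34 and 0.708 FPKM in High-Low livers, against 1.44, 2.25 and 0.786 FPKM in 2×Trp livers. The groups overlapped, and the difference of -0.32 in log2(FPKM + 1) (SE 0.28, 95% interval -0.97 to 0.33) had an unadjusted p of 0.289 and an adjusted p of 0.998 by limma. It was -0.54 without 2×Trp 3. Without 2×Trp 2, its highest library, E2F1 fell below the filter and was not tested, and likewise without High-Low 2 or 2×Trp 1. CCNE2, a cyclin that starts the S phase, was at 0.176, 0.0790 and 0.162 FPKM in High-Low livers and at 0, 0.155 and 0.0221 FPKM in 2×Trp livers. CCNE2 overlaps INTS8 on the opposite strand, and no strand setting of the counting is given in the sources used here.

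Among the 15 mitotic genes with a row, only UBE2C, TPX2 and AURKB were abundant enough to be tested. UBE2C, the ubiquitin-conjugating enzyme that works with the anaphase-promoting complex, had 4.19, 5.72 and 4.52 FPKM in High-Low livers, against 4.11, 5.34 and 6.31 FPKM in 2×Trp livers. AURKB, the kinase of the chromosomal passenger complex, had 1.52, 2.199 and 2.30 FPKM in High-Low livers, against 1.77, 1.90 and 2.19 FPKM in 2×Trp livers. Both genes varied little, with coefficients of variation over the 6 libraries of 17.8% for UBE2C and 15.3% for AURKB. TPX2, a spindle assembly factor, had 2.81, 2.04 and 1.77 FPKM in High-Low livers, against 1.23, 3.50 and 2.24 FPKM in 2×Trp livers. TPX2 thus had its lowest and its highest library within 2×Trp, and a feature without a symbol (mean 1.89 FPKM) overlaps it on the opposite strand. In log2(FPKM + 1) the diet differences were -0.10 for UBE2C (95% interval -0.63 to 0.43), 0.018 for AURKB (-0.46 to 0.50) and -0.0061 for TPX2 (-0.70 to 0.69). The sign for TPX2 turned to 0.0051 when libraries were scaled to their FPKM total, and that for AURKB to -0.04 under quantile normalization.

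**Figure D2:**
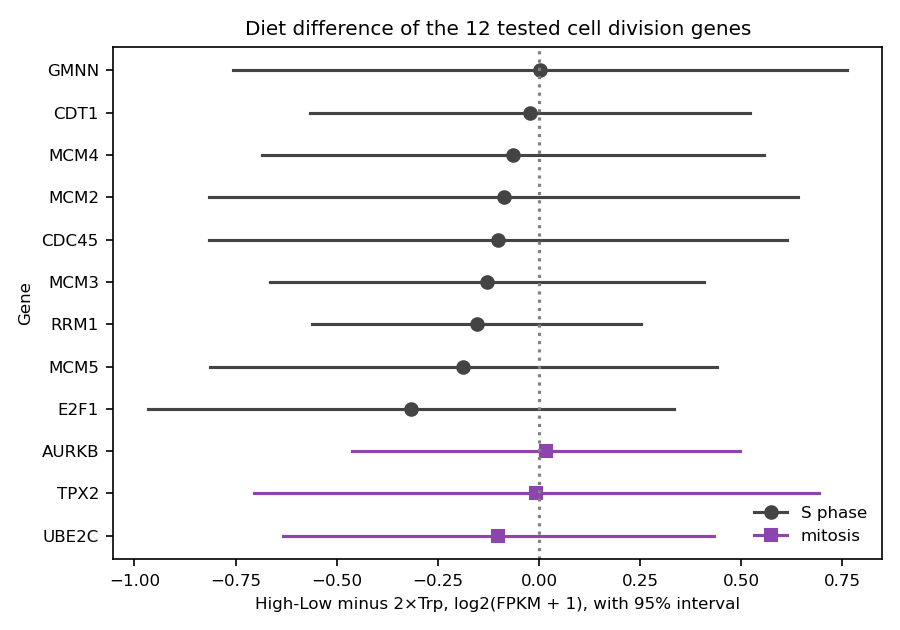
Difference in log2(FPKM + 1), High-Low minus 2×Trp, of the 12 tested genes (points) with the 95% interval from limma (lines), S phase genes as circles and mitotic genes as squares. Every interval crosses 0, and the points run from -0.32 for E2F1 to 0.018 for AURKB.

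Of the 12 differences, 10 were negative and 2 positive, with a median of -0.09. This balance depended on the libraries kept. Without 2×Trp 2, 6 of the 9 members still tested were positive and 3 negative, and the median was 0.06. Without High-Low 3, 5 of 11 were positive and 6 negative, with a median of -0.05. The median also stayed negative without any other single library but 2×Trp 2. The members no longer tested without 2×Trp 2 were CDT1, MCM5 and E2F1. They were negative and had passed the filter only with 2×Trp 2 counted. The median was -0.10 for the 9 S phase genes (1 positive, 8 negative; 0.08 without 2×Trp 2) and -0.0061 for the 3 mitotic genes (1 positive, 2 negative). Over all 10901 genes tested it was -0.0038, with 5391 positive and 5510 negative. The widest bounds of the members' 95% intervals were -0.97 (E2F1) and 0.76 (GMNN), so these 3 libraries a diet do not exclude a difference of that size for those genes.

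The other 12 mitotic genes with a row were below the filter, and CDK1, the kinase that starts mitosis, varied most. CDK1 (chromosome 14, 69262319 to 69277262) had 0.472, 0.124 and 0.275 FPKM in High-Low livers, against 0.0688, 1.99 and 0.522 FPKM in 2×Trp livers. A single library, 2×Trp 2, held 57.7% of its summed FPKM, and the lowest library was also of the 2×Trp diet. CCNB1, the cyclin partner of CDK1, had 1.10, 0.572 and 0.326 FPKM in High-Low livers, against 0.372, 1.75 and 0.508 FPKM in 2×Trp livers. TOP2A, which untangles DNA strands, had 0.872, 0.198 and 0.328 FPKM in High-Low livers, against 0.103, 0.946 and 0.322 FPKM in 2×Trp livers. Both genes had 2×Trp 2 as the highest and High-Low 1 as the next library. PLK1, a kinase of mitotic entry and exit, had the same order, with 1.34, 0.799 and 0.862 FPKM in High-Low livers and 0.981, 2.26 and 0.670 FPKM in 2×Trp livers.

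CCNB2, a second B-type cyclin, was led instead by High-Low 1, with 0.848, 0.402 and 0.178 FPKM in High-Low livers and 0.445, 0.319 and 0.113 FPKM in 2×Trp livers. FOXM1, the transcription factor of many mitotic genes, was even, at 0.419 to 0.532 FPKM in High-Low livers and 0.3302 to 0.446 FPKM in 2×Trp livers. KIF20A, a motor protein of cytokinesis, ranged from 0.812 to 1.12 FPKM in High-Low livers and from 0.468 to 1.17 FPKM in 2×Trp livers. In none of these 3 genes was 2×Trp 2 set apart from the other libraries. CDC20, an activator of the anaphase-promoting complex, ranged from 0.456 to 0.811 FPKM in High-Low livers and from 0.626 to 1.48 FPKM in 2×Trp livers, and a feature of 10.3 FPKM overlaps it on the opposite strand. The checkpoint kinases BUB1 and BUB1B, the spindle motor KIF11 and the kinetochore protein CENPF stayed at or below 0.3304 FPKM in every library. At the threshold, CDT1, MCM5 and E2F1 were just inside with 3 libraries at 1 FPKM or more, 2×Trp 2 among them each time. PLK1, CCNB1 and KIF20A were just outside with 2.

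Whole reads were recovered for 9 members, as the smallest whole numbers that fit the steps, and any whole multiple of them would fit too. CCNB2, CDK1, CCNB1 and AURKB averaged above the limit of 0.3 FPKM, so the share of low features given above does not cover them. CDK1 came to 9, 2 and 5 reads in High-Low 1 to 3, against 1, 27 and 10 reads in 2×Trp 1 to 3. Divided by relative depth, the exact Poisson 95% interval was 3.11 to 12.9 reads for High-Low 1 and 19.0 to 42.0 reads for 2×Trp 2, so these intervals do not overlap. CCNB1 came to 39, 17 and 11 reads in High-Low livers, against 10, 44 and 18 reads in 2×Trp livers. For CCNB1 the intervals divided by depth of High-Low 1 (21.0 to 40.3) and 2×Trp 2 (34.2 to 63.1) overlap each other and lie above that of 2×Trp 1 (4.80 to 18.4). Over the 6 libraries CCNB2 held 36 reads, KIF11 and CDC6 31 each, CCNE2 24, BUB1 17 and BUB1B 12, and AURKB 62. For AURKB, KIF11, CDC6, CCNE2, BUB1 and BUB1B the intervals of the highest and the lowest library, divided by depth, overlap, and for CCNB2 they do not. The intervals cover counting error only, and they take these smallest whole numbers as the reads.

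**Figure D3:**
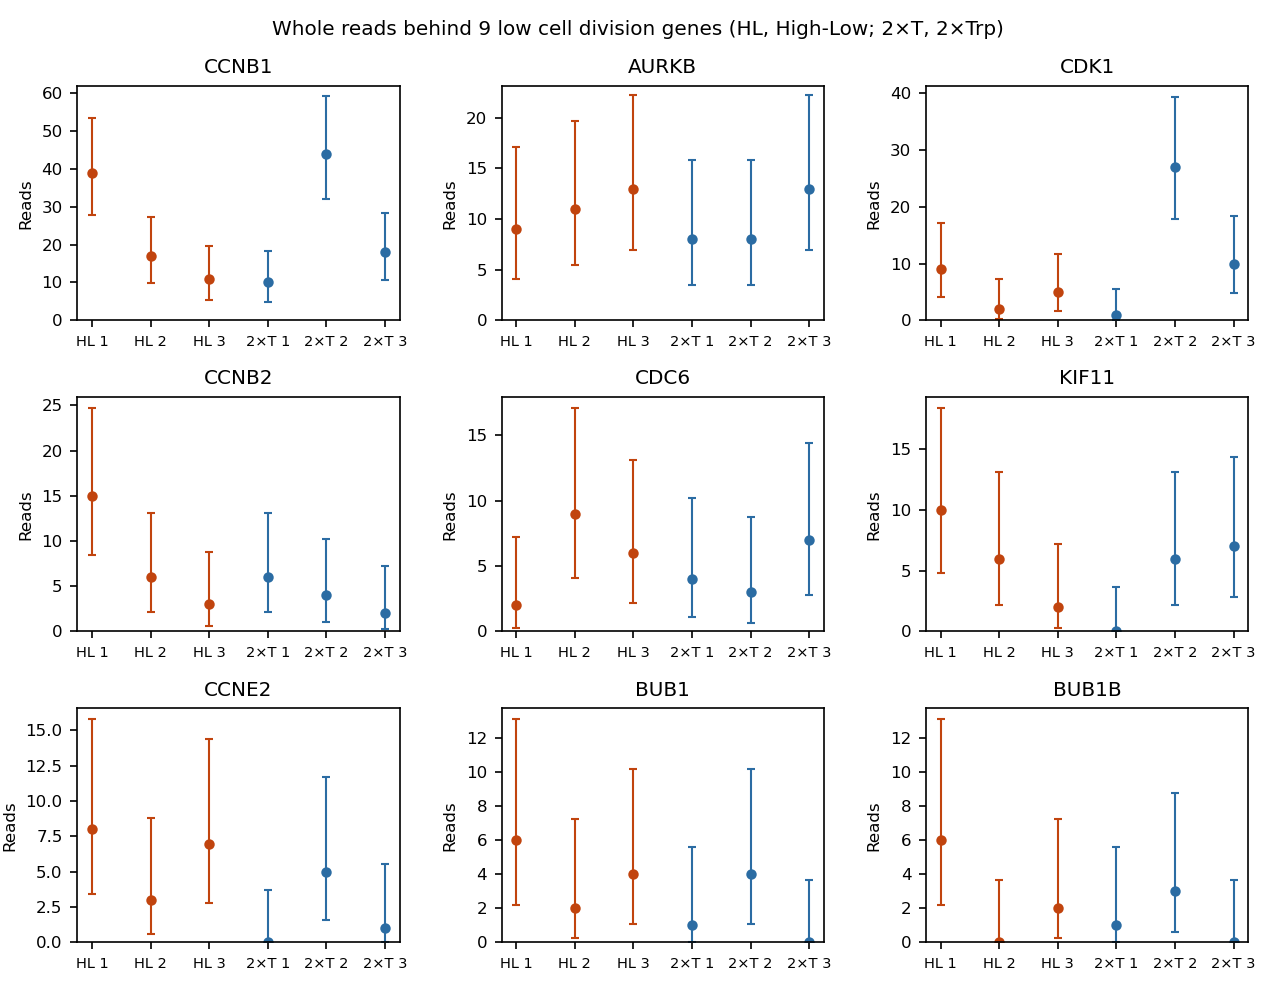
Whole reads recovered for 9 members, 1 panel a gene, with the 3 High-Low libraries (HL) left of the 3 2×Trp libraries (2×T) and exact Poisson 95% intervals as bars. CDK1 stands at 27 reads in 2×Trp 2 and at 1 to 10 elsewhere, whereas BUB1B holds 12 reads in all.

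Across libraries the members leaned towards 2×Trp 2, and the mitotic genes also towards High-Low 1. Of the 15 mitotic genes, 6 had their highest value in High-Low 1 and 7 in 2×Trp 2, with 1 each in High-Low 3 and 2×Trp 3. Of the 11 S phase genes, 6 were highest in 2×Trp 2, 2 in 2×Trp 3 and 1 in each High-Low library. Among all 18090 features with a value, 24.6% were highest in High-Low 1 and 13.4% in 2×Trp 2. High-Low 1 and 2×Trp 2 were the 2 highest libraries for 8 of the 15 mitotic genes (53.3%) and for 1 of the 11 S phase genes (9.09%). The same held for 9.57% of all features with a value, and for 11.3% of the 7701 with a mean under 1.2 FPKM. In the lists of other genes it held for 20 of 47 mitotic genes (42.6%) and for 10 of 38 replication genes (26.3%). This pair of libraries was singled out after the values were seen, so the counts are a description without a test. The relative depth was 1.32 for High-Low 1, as for 2×Trp 3, and 0.936 for 2×Trp 2, the lowest of the 6.

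**Figure D4:**
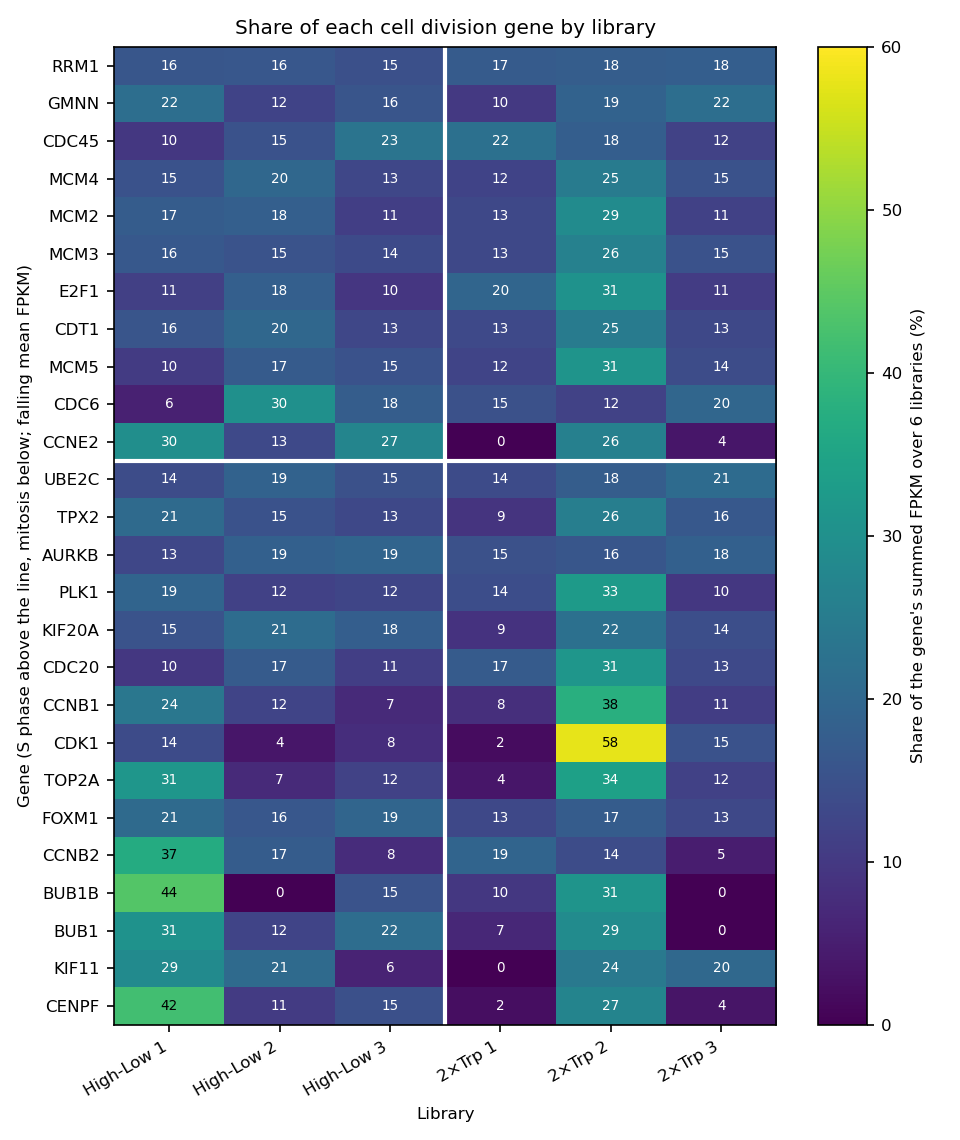
Share of each gene's summed FPKM held by each library (colour, 0 to 60%), for the 26 members with a row, S phase genes above the line and mitotic genes below, High-Low libraries at the left. The 2×Trp 2 column is bright for MCM2 to MCM5, CDK1 and CCNB1, and High-Low 1 is bright for the lower mitotic genes such as BUB1B (44.0%).

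S phase and mitotic genes were then set side by side in each library. Summed over the 11 S phase genes, the level was 30.1, 28.7 and 27.6 FPKM in High-Low livers, against 26.3, 38.8 and 30.4 FPKM in 2×Trp livers. Over the 15 mitotic genes it was 15.8, 14.6 and 12.9 FPKM in High-Low livers, against 10.8, 21.7 and 14.7 FPKM in 2×Trp livers. Both sums were highest in 2×Trp 2 and lowest in 2×Trp 1, so the 2×Trp diet held both ends of each range. The 12 mitotic genes below the filter, summed after their values were seen, came to 7.24, 4.66 and 4.28 FPKM in High-Low livers and 3.70, 10.99 and 3.96 FPKM in 2×Trp livers. UBE2C, TPX2 and AURKB together came to 8.51, 9.96 and 8.60 FPKM in High-Low livers and 7.11, 10.7 and 10.7 FPKM in 2×Trp livers. As sums, the low mitotic genes thus set 2×Trp 2 apart from 2×Trp 3, and the 3 more abundant ones did not. Of these 3, TPX2 was higher in 2×Trp 2 than in 2×Trp 3 (3.50 against 2.24 FPKM). UBE2C (5.34 against 6.31 FPKM) and AURKB (1.90 against 2.19 FPKM) were lower. The filter split the 15 genes into these sets, and it leaves out genes at 1 FPKM or more in fewer than 3 libraries. The contrast between the sets thus partly reflects the filter.

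The S phase minus mitotic level, the difference of the mean log2(FPKM + 1) of the 9 and the 3 tested genes after centring each gene, was -0.02, -0.05 and -0.07 in High-Low 1 to 3, against 0.16, 0.20 and -0.24 in 2×Trp 1 to 3. The High-Low livers were close to 0, while 2×Trp 3 lay opposite in sign to the other 2×Trp livers. Over all 26 members the same difference was -0.16, 0.08 and -0.0017 in High-Low livers and 0.07, 0.03 and -0.01 in 2×Trp livers. The spread within 2×Trp thus depended on which genes were included.

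Genes of blood cell precursors were compared with the members, since those cells divide in the newborn liver. The 21 erythroid precursor genes with a row summed to 1884, 7291 and 4487 FPKM in High-Low livers, against 15980, 6250 and 15440 FPKM in 2×Trp livers. Nearly all of this was HBB, the beta globin chain, with 1793, 7122 and 4303 FPKM in High-Low livers and 15745, 6094 and 15187 FPKM in 2×Trp livers. High-Low 1 had the lowest of these sums, and 2×Trp 2 the lowest of its diet, whereas both had the 2 highest sums of the low mitotic genes. Both libraries also had the 2 highest sums over all 15 mitotic genes. The centred mean log2(FPKM + 1) of the 12 tested erythroid genes was also lowest in High-Low 1 and, within 2×Trp, in 2×Trp 2. It was -0.62, 0.0036 and 0.04 in High-Low 1 to 3, against 0.23, 0.02 and 0.33 in 2×Trp 1 to 3. The remaining libraries were not in the order of the sums. GATA1 and KLF1, in this list but below the filter, were also lowest in High-Low 1. Within 2×Trp, both were lowest in 2×Trp 1, at 0.463 and 0.202 FPKM, beside 0.993 and 0.865 FPKM in 2×Trp 2. The 11 genes of blood stem and progenitor cells summed to 20.2, 32.8 and 28.9 FPKM in High-Low livers, against 32.8, 38.1 and 46.4 FPKM in 2×Trp livers, and HOXA9 was listed at 0. Most of it was SPI1, a transcription factor of myeloid and lymphoid cells, with 14.2, 24.6 and 19.7 FPKM in High-Low livers and 23.6, 29.5 and 37.1 FPKM in 2×Trp livers.

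The 13 granulocyte precursor genes summed to 45.8, 189 and 57.8 FPKM in High-Low livers, against 42.6, 47.1 and 63.9 FPKM in 2×Trp livers. High-Low 2 stood apart there through S100A8, AZU1 and PRTN3, proteins of neutrophil granules and cytosol, with 58.9, 58.4 and 26.8 FPKM. High-Low 2 was the highest library for none of the 15 mitotic genes. The 9 B cell precursor genes, with RAG1 listed at 0, summed to 1.95, 6.12 and 7.15 FPKM in High-Low livers and 3.13, 3.46 and 3.85 FPKM in 2×Trp livers. The 5 megakaryocyte and platelet genes summed to 1.44, 1.84 and 2.77 FPKM in High-Low livers and 1.29, 1.62 and 1.34 FPKM in 2×Trp livers, with GP1BB and GP6 listed at 0. Thus 2×Trp 2 was the highest library in none of the 5 blood lists, and High-Low 1 was the lowest for the erythroid, progenitor and B cell precursor lists.

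Other liver cell types were summed in the same way. The 11 hepatocyte genes came to 56830, 68190 and 45310 FPKM in High-Low livers, against 52540, 63080 and 46110 FPKM in 2×Trp livers. By this sum the highest library within 2×Trp was again 2×Trp 2, and within High-Low it was High-Low 2. The mean log2(FPKM + 1) of the 11 genes, each centred, gave another order within High-Low. It was highest in High-Low 1, at 0.45, and next in 2×Trp 2, at 0.23, with High-Low 2 at -0.0043. The 5 macrophage genes were highest in 2×Trp 2, with 247, 444 and 316 FPKM in High-Low livers and 413, 572 and 561 FPKM in 2×Trp livers. The 10 stellate cell genes were lowest in 2×Trp 2, at 107 FPKM, beside 109 to 153 FPKM in High-Low livers and 165 to 170 FPKM in the other 2×Trp livers. High-Low 1 was the lowest library for the bile duct (6 genes), endothelial (9 genes) and T and NK cell (8 genes) lists. The part of cell composition in the members' values was not tested.

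**Figure D5:**
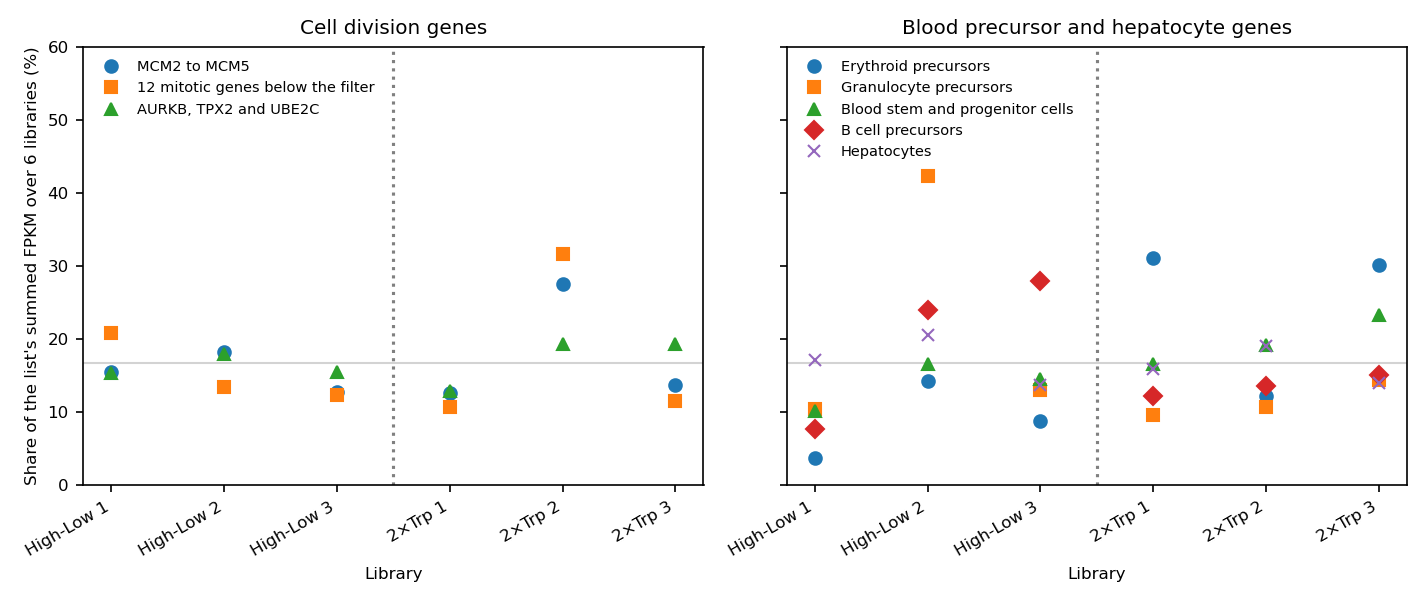
Share of the summed FPKM of each gene list held by each library (%), cell division subsets in the left panel and blood precursor and hepatocyte lists in the right panel, High-Low libraries left of the dotted line and 16.7% as the even share. The 12 low mitotic genes stand at 31.6% in 2×Trp 2, where the erythroid list stands at 12.2%. The filter leaves genes high in fewer than 3 libraries in that mitotic set, so its share partly reflects the filter.

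Further genes of replication, mitosis and cell cycle control gave 0 calls in either direction by limma, at an adjusted and at an unadjusted p under 0.05. Of 47 other replication genes, 38 had a row and 21 were tested, 15 with a positive and 6 with a negative difference (median 0.07). UNG, which removes uracil from DNA, had the smallest p of the list (unadjusted 0.0754), with 4.12, 3.46 and 4.09 FPKM in High-Low livers and 2.94, 2.23 and 2.87 FPKM in 2×Trp livers. All its High-Low values lay above all its 2×Trp values, and the difference in log2(FPKM + 1) was 0.41 (SE 0.20, adjusted p = 0.998 by limma). RFC1 and ORC5, of the clamp loader and the origin recognition complex, followed with 0.44 and 0.29, and POLD2, UHRF1 and NASP were the negative ones of smallest p, at -0.36, -0.18 and -0.03. Neither this list nor the S phase members had a call.

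Of 59 other mitotic genes, 48 had a row and 11 were tested, 3 with a positive and 8 with a negative difference (median -0.12). RACGAP1, which acts in cytokinesis, and LMNB1, a lamin of the nuclear envelope, were at 0.33 and 0.32, and CDCA3 and INCENP at -0.29 and -0.18. KIF22, a chromosome motor, was at 0.09, CDC25B, which activates CDK1, at -0.18, and HMGB2 was listed at 0 in all libraries. Of 44 cell cycle regulators, 30 had a row and 17 were tested, 10 with a positive and 7 with a negative difference (median 0.03). MYC, a growth-promoting transcription factor, had 50.9, 88.6 and 35.8 FPKM in High-Low livers, against 53.8, 17.2 and 31.5 FPKM in 2×Trp livers. Its lowest library was 2×Trp 2, the one highest for most S phase members, and its difference was 0.80 in log2(FPKM + 1) (SE 0.47, 95% interval -0.29 to 1.89). The difference of MYC was 0.46 without High-Low 2, 0.40 without 2×Trp 2 and 1.19 without 2×Trp 1. SKP2, which targets cell cycle inhibitors for destruction, was highest in High-Low 1, with 8.87, 4.34 and 2.97 FPKM in High-Low livers and 1.25, 4.46 and 3.08 FPKM in 2×Trp livers. MDM2, the p53 ligase, had a difference of 0.42, and E2F4, LIN37 and FZR1, which act in quiescence or mitotic exit, had -0.16, -0.25 and -0.11. CDKN1A, CDKN2A and MYBL1 were listed at 0 in all libraries, which may be a failed estimate. Of the 18 genes named from these 3 lists, UNG alone stayed within 1.5 times of its difference whichever library was left out.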

How the data were processed

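Groups and replicate numbers came from the sample titles. The values the authors deposited, 1 table per library, were read as FPKM, that is, as normalised to gene length and library size before deposit, because they are fractional and their totals differ. The file headers give no unit, and the sources used here do not give the step that made the values. Per the submitters' processing notes, the tools named are Bowtie2 2.2.3, TopHat2 2.0.12, TopHat and HTSeq 0.6.1 with the assembly susScr3. An exact 0 can be a failed estimate. Symbols came from a table of Ensembl names, which named 11804 of 25322 identifiers.

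Genes at 1 FPKM or more in at least 3 libraries were compared on log2(FPKM + 1), which understates changes of low genes, with limma 3.58.1 in R 4.3.3 (mean trend, robust, two-sided, Benjamini-Hochberg threshold 0.05). Fold changes are High-Low minus 2×Trp. Tables and plots used Python 3.11.15 and matplotlib 3.10.9. The members and lists were chosen with earlier results of these data known. Other genes were named by rule: the 3 smallest p in each direction of each list of cell cycle genes, and up to 3 highest means of each blood list, with markers listed at 0. GATA1 and KLF1 were added outside this rule. Alternatives changed scaling, pseudocount (0.1), filter (none, or 5 FPKM), moderation, library weights, the replicate block and the libraries kept. No promoter or protein sequence was used here.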

Additional observations from a re-analysis of the deposited data

How the results depend on the processing

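The members gave 0 calls in either direction under all 16 alternatives, with 3 to 26 members tested and a smallest adjusted p of 0.429 (library weights) by limma; weights gave 768 genes higher and 1021 lower at an unadjusted p under 0.05, and leaving out High-Low 2 gave 613 and 790. Same-numbered libraries had deviation correlations of -0.216, -0.011 and 0.032, beside -0.133 to 0.119 for the other pairs. The deviations were centred within 3 libraries a diet, so these values cannot decide whether equal numbers share a batch. With the replicate block the members had 0 calls and all genes 1 higher and 0 lower. All genes called lower became 1 under FPKM-total scaling, quantile normalization, the total without the 20 most abundant genes, and library weights. Leaving out 1 library gave 1 to 2 genes called higher (2 without 2×Trp 3). TPX2 turned to 0.0051 (FPKM total), 0.015 (without the 20 genes) and 0.0192 (pseudocount 0.1), AURKB to -0.0432 (quantile), and with library weights CDC45 to 0.3066, GMNN to -0.1014 and KIF22 to -0.0483. The S phase minus mitotic level moved without a filter to 0.0275 in 2×Trp 2 and -0.0119 in 2×Trp 3. With the 5 FPKM filter, which leaves 3 members, it moved to 0.3732 in High-Low 1, -0.3572 in High-Low 2, -0.0483 in 2×Trp 1 and -0.049 in 2×Trp 3. Leaving out 1 library at a time, differences ran from -0.3328 to 0.1254 for CDC45, -0.2977 to 0.196 for GMNN, -0.2669 to 0.2172 for MCM2, -0.2497 to 0.0565 for MCM3, -0.2251 to 0.153 for MCM4, -0.1123 to 0.0606 for CDT1, -0.0546 to 0.1407 for AURKB, -0.265 to 0.2416 for TPX2, -0.238 to 0.0199 for UBE2C, -0.1912 to 0.0951 for NASP and -0.1274 to 0.3092 for KIF22. The mitotic median ran from -0.238 (without 2×Trp 1) to 0.0199, and the S phase median from -0.218 (without 2×Trp 1) to 0.0824 (without 2×Trp 2). Differences of E2F1 (-0.5359 to -0.2228), MCM5 (-0.3312 to -0.0847) and RRM1 (-0.181 to -0.1121) kept their sign with 1 library left out, where tested. E2F1 fell below the filter without High-Low 2, 2×Trp 1 or 2×Trp 2, and MCM5 without High-Low 2, High-Low 3 or 2×Trp 2. CDT1 did so without High-Low 1, High-Low 2 or 2×Trp 2. The ranges of these genes lack those cases. MYC ran from 0.3966 to 1.1926. Apart from the fewer genes or libraries tested, the cause was not tested. The planned count test on whole reads was not run, since whole reads came back for 9 of the members only.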
